A study of Mus musculus with 9 samples.

Results

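Mouse dental papilla cells grown as a monolayer were compared with primary dental papilla cells, gene by gene across the whole count table. Of the 9 RNA sequencing libraries of the study, 6 entered the comparison: the 3 whose columns are labelled monolayer and the 3 labelled DPC primary (DPC, dental papilla cell). The 3 sphere libraries were left out of the fit. The monolayer group had been kept on EpiCM medium that held fetal bovine serum at 2%, a growth supplement at 1% and penicillin/streptomycin at 1%; the growth protocol gives 14 days for this culture and the source label gives 8 days. The primary group is labelled only as primary dental papilla cells, with no treatment or time, while the design text of the series has a group called DPC P2 in that place. Both groups came from C57BL/6 mice, and no transgene, sort or age is stated for either in the labels. Culture, medium and time thus differ together between the groups and cannot be told apart. The labels do not say whether replicate libraries stand for different animals or cultures; the p-values therefore measure spread among these libraries only, part or all of which may be technical.

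The dental papilla is the condensed mesenchyme of the tooth germ. It derives from cranial neural crest, lies under the enamel epithelium with which it exchanges Wnt, BMP, FGF and Hedgehog signals, and gives rise to the dental pulp and to odontoblasts, the cells that secrete and mineralize dentin. Cultured on plastic, such cells attach, spread and divide as fibroblast-like cells.

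Total counts ran from 43935018 to 52047254 in the monolayer libraries and from 44620255 to 47570939 in the primary libraries, and 14928 of 53353 table entries had enough counts to be tested. Levels are given in CPM, the usual unit of counts relative to library size, here with library sizes multiplied by the TMM factors of edgeR, which were 0.891 to 0.914 in monolayer and 1.105 to 1.11 in primary libraries. Within a group the libraries correlated at 0.9937 to 0.9958, and between groups at 0.9379 to 0.94 (Pearson, log CPM, across genes). The first principal component, which held 89.64% of the variance, separated the groups. The biological coefficient of variation was 4.9% among monolayer and 2.477% among primary libraries. The labelled tissue was checked on 15 markers of dental papilla and pulp mesenchyme, all of which were expressed in both groups. Their summed level was 98091 to 107424 CPM in monolayer and 57622 to 59126 CPM in primary libraries, most of it from Col1a1. By the test beyond 2-fold described below, none of the 15 rose and 3 fell (Alpl, Tnn and Msx2). Their median log2 change, monolayer over primary, was 0.24, and -0.06 with libraries scaled to total counts alone.

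The culture differed from the primary cells over most of the transcriptome. At an adjusted p under 0.05 (edgeR quasi-likelihood test, Benjamini-Hochberg), 5377 genes (36.0% of those tested) were higher in monolayer and 5753 (38.5%) were lower, 74.6% in either direction. Because so many genes passed, members of gene lists are counted below by a stricter test, of a change beyond 2-fold in the same fit, at the same threshold. By this test 964 genes (6.46%) rose and 1213 (8.13%) fell, 14.6% in either direction, and the median log2 change over all genes tested was -0.03. The groups of 3 did not overlap in 76.5% of genes, so a lack of overlap in a gene named below was the usual case. Counts of list members beyond 2-fold are to be read against the 6.46% that rose and the 8.13% that fell. Higher genes made up 48.3% of the calls; with libraries scaled to their total counts alone, which shifts the median of all genes by -0.296 on the log2 scale, they made up 25.8%. Among changes beyond 2-fold the share was 44.3% with TMM factors and 27.6% with total counts. Directions given below are on the TMM scale; on the total-count scale the median changes sign for the lists of collagens, cell cycle inhibitors and p53 targets, surface markers, FGF and IGF, fatty acid, NRF2 and imprinted genes and for the endothelial, chondrocyte and dental papilla markers. Large fitted changes were more often decreases: over 8-fold, 155 genes were higher and 298 lower, and over 32-fold, 20 were higher and 95 lower.

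Among the 12 largest increases was Fmo2 (chr1:162874317-162898726 on GRCm38), a flavin-containing monooxygenase, an enzyme that oxidizes drugs and other small molecules. Fmo2 had 316, 332 and 306 CPM in the monolayer libraries, against 0.545, 0.739 and 0.948 CPM in the primary libraries. Its 3 monolayer values were all above its 3 primary values, 427-fold by the means (log2 change 8.73, SE 0.074; edgeR adjusted p = 1.2e-25). The increases also held 4 interferon-inducible genes (Ifi207, Ifi204, Oas3 and Ifit3b), described with their group below, and the matrix metalloproteinase Mmp10, a stromelysin, with 47.2 ± 1.63 CPM in monolayer and 0.602 ± 0.0851 CPM in primary cells (mean ± SD, n = 3 each, as for the averages below). Clca3a1, a calcium-activated chloride channel regulator, reached 174, 183 and 171 CPM in monolayer libraries, against 2.02, 1.61 and 1.9 CPM in primary libraries. Mlph, the melanophilin that links Rab27 vesicles to myosin, averaged 179 ± 3.26 CPM in monolayer and 7.14 ± 0.94 CPM in primary cells, a 25-fold difference. Slc17a8, a vesicular glutamate transporter, averaged 22.3 ± 1.6 CPM in monolayer and 0.337 ± 0.0523 CPM in primary cells. Galnt15, an enzyme of O-glycan initiation, and Krt20, a keratin of gut epithelium, averaged 10.1 ± 0.657 and 68.4 ± 2.65 CPM in monolayer, against 0.206 ± 0.11 and 2.09 ± 0.128 CPM in primary cells. For each of the 12 the lowest monolayer value lay above the highest primary value, which the choice of genes required.

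Of the 12 largest decreases, 7 were genes of stratified epithelium: Krt5, Krt14, Krt16, Krt17, Krt6a, Krt6b and Pkp1, a plakophilin of desmosomes. Krt14, which with Krt5 forms the filaments of basal keratinocytes, had 0.256, 0.217 and 0.383 CPM in monolayer libraries, against 108, 107 and 111 CPM in primary libraries. Krt5 had 0.235, 0.145 and 0.128 CPM in monolayer libraries, against 53.4, 57.3 and 56.1 CPM in primary libraries. Both were present in every primary library and below 1 CPM in every monolayer library, with folds of 381 and 329 by the means, lower in monolayer. For Krt16, with 3 counts in all monolayer libraries together and 1606 in the primary libraries, the ratio of primary to monolayer was 444, with a 95% exact binomial interval of 152 to 2153 that covers counting error only. The other decreases were the AP-1 and stress factors Fosb and Atf3, the matrix genes Thbs4 (thrombospondin 4) and Lama1 (a laminin chain), and Dynap, which encodes a dynactin-associated protein (0.293 ± 0.0867 CPM in monolayer and 12.8 ± 0.414 CPM in primary cells).

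**Figure D1:**
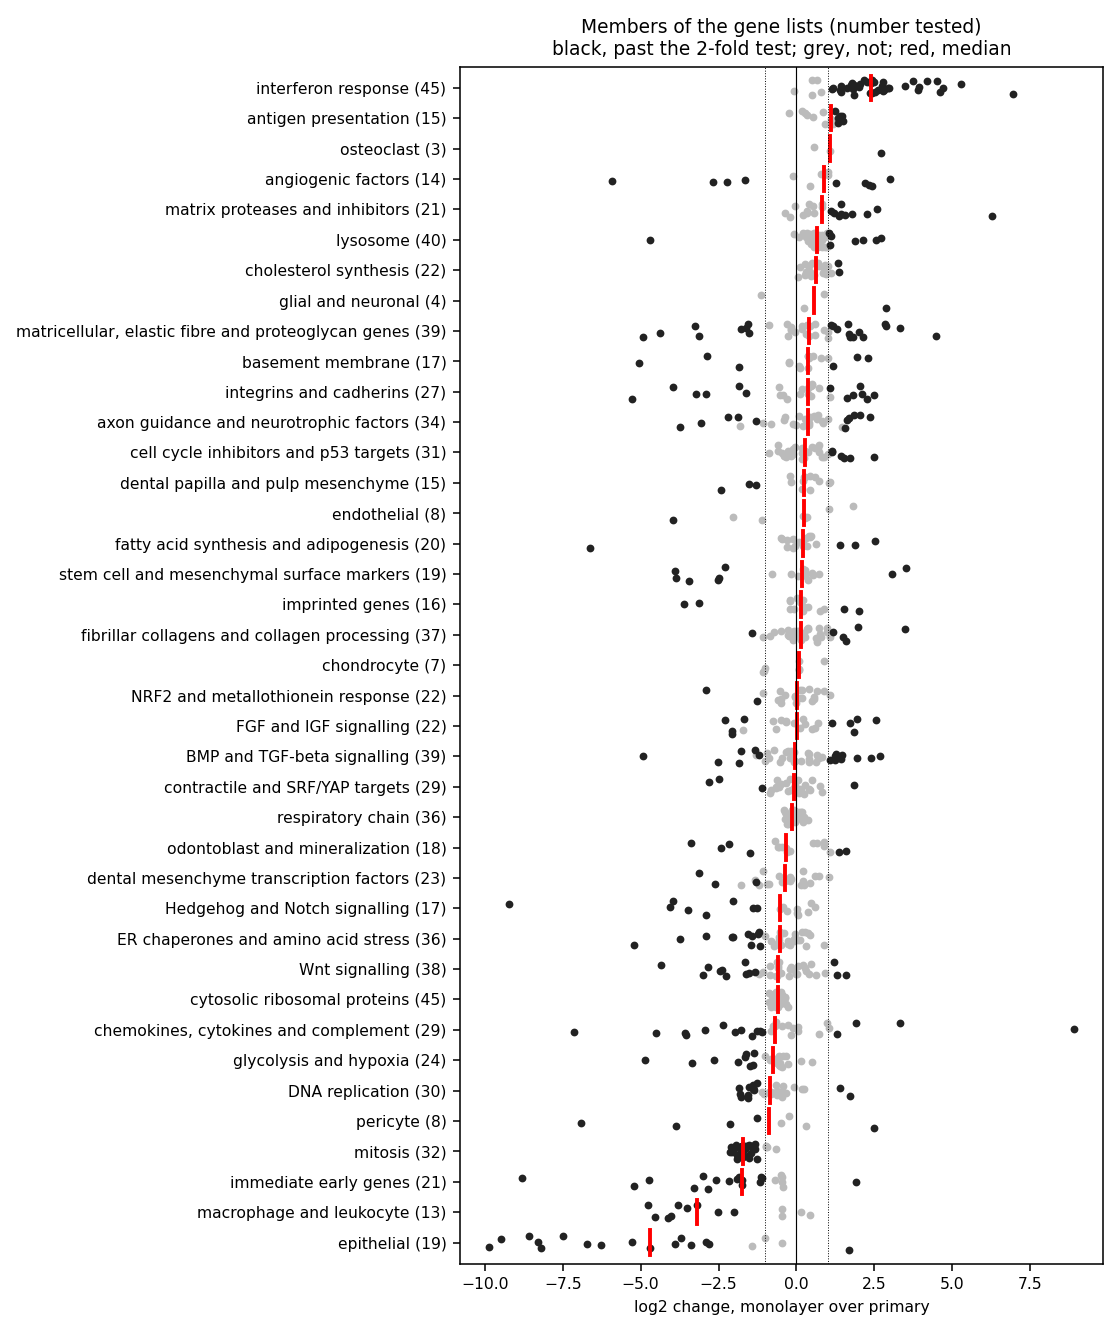
Fitted log2 change of each tested member of the gene lists, monolayer over primary; each point is a gene, black where it passed the test beyond 2-fold and grey where it did not, the red bar is the list's median, and the number tested stands in parentheses. Interferon response genes sit to the right with a median of 2.38, while mitosis (-1.71), immediate early genes (-1.76) and epithelial markers (-4.70) sit to the left.

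Col1a1, Col1a2, Col4a1 and Col4a2, collagen chains of type I and type IV, were higher in monolayer. The 10 genes with the largest share of counts took 17.1 to 17.8% of a monolayer library and 11.5 to 11.6% of a primary library. Col1a1, the alpha 1 chain of type I collagen and first in both groups, took 7.55, 7.28 and 7.89% of the counts in monolayer, against 4.39, 4.40 and 4.52% in primary libraries. Col1a2, its partner chain, took 4.04, 4.01 and 4.07% in monolayer, against 1.65, 1.65 and 1.63% in primary libraries. Gpx3, a secreted glutathione peroxidase, Gsn, the actin-severing gelsolin, Col4a1 and Col5a2 stood among the 10 in monolayer but not in primary cells, where Eef2, Fn1, Col6a1 and Col12a1 took their places. Gpx3 averaged 11006 ± 235 CPM in monolayer and 2805 ± 27.6 CPM in primary cells, and Gsn 6594 ± 274 CPM in monolayer and 2008 ± 37.1 CPM in primary cells; both passed the test beyond 2-fold, as did Col1a2 and Col4a1. Sparc, the collagen-binding osteonectin, was 1.85-fold higher. The translation factors Eef1a1 and Eef2 were lower in monolayer, with log2 changes of -0.38 and -0.44.

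Markers of other cell types were read next, since they moved with the groups. Of 24 epithelial markers, 19 could be tested, 15 fell beyond 2-fold, 1 rose beyond 2-fold, and the median log2 change was -4.70. Epcam, an epithelial adhesion molecule, averaged 0.0246 ± 0.0241 CPM in monolayer and 2.77 ± 0.351 CPM in primary cells. Cdh1, which encodes E-cadherin, averaged 0.127 ± 0.0956 CPM in monolayer and 5.32 ± 0.311 CPM in primary cells. Odam, a protein of enamel epithelium, had 1 count in the monolayer libraries together and 1503 in the primary libraries, a ratio of primary to monolayer of 1245 (95% exact interval 223 to 49221). Cldn4, a tight junction claudin, likewise had 1 count in monolayer and 1150 in primary libraries, a ratio of primary to monolayer of 953 (171 to 37668). The exception was Cldn1, another claudin, with 84.6, 89.5 and 83.1 CPM in monolayer libraries, against 26.4, 28 and 25.5 CPM in primary libraries. The summed level of the 24 markers was 97.2 to 104 CPM in monolayer and 325 to 328 CPM in primary libraries, and without Cldn1, which carries most of the monolayer sum, 14.1 to 14.5 CPM in monolayer and 297 to 302 CPM in primary libraries. The markers Krt15, Amelx and Enam had at most 3 counts in the 6 libraries. In bulk RNA, fewer cells of a type and less RNA per cell cannot be told apart. Among all 17 keratin genes tested, 10 fell and 2 rose beyond 2-fold, so that Krt20 moved against most of its family.

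Macrophage and leukocyte markers were also lower. Of 15, 13 were tested and 9 fell beyond 2-fold, none rose beyond 2-fold (1, Csf1r, was higher by the plain test), and the median was -3.20. C1qa, a subunit of the complement protein C1q made by macrophages, averaged 0.0993 ± 0.0644 CPM in monolayer and 1.71 ± 0.215 CPM in primary cells. Lyz2, the macrophage lysozyme, averaged 2.97 ± 0.0569 CPM in monolayer and 12 ± 0.544 CPM in primary cells. Adgre1, which encodes the F4/80 antigen, had 0.0421 ± 0.0534 CPM in monolayer and 0.479 ± 0.0775 CPM in primary cells. The summed level was 14.8 to 16.9 CPM in monolayer and 32.8 to 35.6 CPM in primary libraries, with no marker at 3 counts or fewer.

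Endothelial markers moved in both directions. Of 12, 8 were tested, 1 fell beyond 2-fold and none rose beyond it, with a median of 0.24 that is -0.05 on the total-count scale; by DESeq2 none fell beyond 2-fold and on the total-count scale 2 did. Their sum was 120 to 130 CPM in monolayer and 96.3 to 100 CPM in primary libraries. Most of that sum came from Eng, an accessory TGF-beta receptor (88.6 ± 6.33 CPM in monolayer and 76.5 ± 2.35 CPM in primary cells), whose direction turns on the total-count scale. Kdr, a receptor of vascular growth factors, averaged 26.5 ± 0.602 CPM in monolayer and 12.8 ± 0.777 CPM in primary cells, and Flt1, another such receptor, 9.41 ± 1.01 CPM in monolayer and 7.48 ± 0.845 CPM in primary cells; both were among the 4 markers higher by the plain test, but Flt1 no longer passed on the total-count scale. Cdh5, the cadherin that defines endothelium, had 0.017 ± 0.0295 CPM in monolayer and 0.285 ± 0.105 CPM in primary cells, and Pecam1 had 0.0946 ± 0.0654 CPM in monolayer and 0.388 ± 0.0584 CPM in primary cells. Of 9 pericyte markers 8 were tested, 4 fell and 1 rose beyond 2-fold; their sums of 1061 to 1119 CPM in monolayer and 959 to 976 CPM in primary libraries lie mostly in Pdgfrb, which fibroblasts express as well. Kcnj8, a potassium channel subunit of pericytes, had 1 count in monolayer and 195 in primary libraries, whereas Rgs5, a regulator of G protein signalling, averaged 4.02 ± 0.425 CPM in monolayer and 0.706 ± 0.252 CPM in primary cells. The 8 osteoclast markers summed to 1166 to 1195 CPM in monolayer and 177 to 182 CPM in primary libraries, almost all of it Ctsk, with Acp5 and Dcstamp at 3 counts or fewer. The 3 osteoclast markers tested were all higher by the plain test, with a median of 1.08, and 1 was higher on the total-count scale. Only Ctsk passed beyond 2-fold. Adipocyte markers summed to 64.8 to 69.7 CPM in monolayer and 17.7 to 19.1 CPM in primary libraries, almost all of it Pparg. Glial and neuronal markers summed to 34.8 to 37.7 CPM in monolayer and 18.4 to 20.2 CPM in primary libraries, and of the 4 tested 1 rose beyond 2-fold: Stmn2, a stathmin that binds tubulin, with 7.57, 7.42 and 7.76 CPM in monolayer libraries, against 0.848, 0.871 and 1.35 CPM in primary libraries. Chondrocyte markers had no change beyond 2-fold among 7 tested, skeletal muscle markers summed to at most 1.23 CPM in monolayer and 4.1 CPM in primary libraries, and none of 7 erythroid markers had enough counts to be tested.

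**Figure D2:**
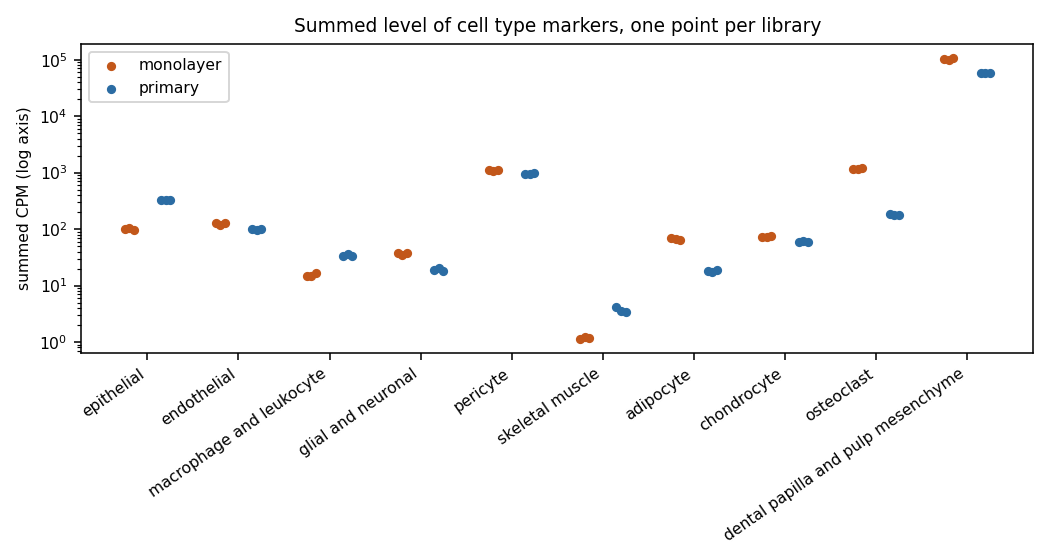
Summed CPM of the markers of each cell type on a log axis, 1 point per library, with the monolayer libraries to the left of the primary libraries. Epithelial and macrophage sums are lower in monolayer (97.2 to 104 and 14.8 to 16.9 CPM, against 325 to 328 and 32.8 to 35.6 CPM in primary libraries), and the osteoclast sum, which is almost all Ctsk, is higher; without Cldn1 the epithelial sum is 14.1 to 14.5 CPM in monolayer, against 297 to 302 CPM in primary libraries.

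**Figure D3:**
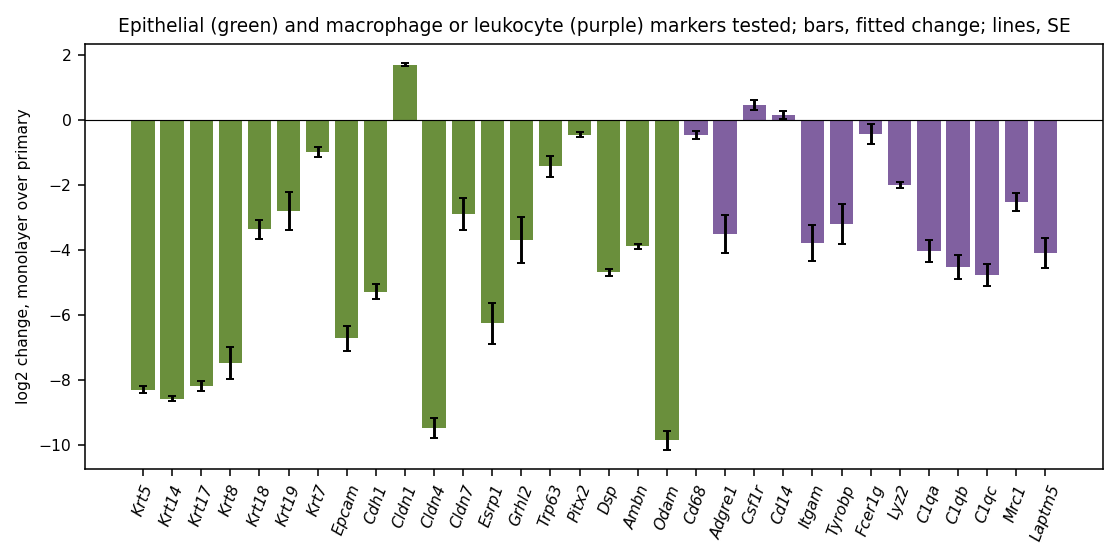
Fitted log2 change, monolayer over primary, of each tested epithelial (green) and macrophage or leukocyte (purple) marker; bars start at 0 and lines give the SE. All epithelial bars but that of Cldn1 (1.69) point down, the longest being that of Odam (-9.86).

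Interferon-inducible genes rose together. Cells make these RNAs when type I interferon activates a complex of STAT proteins and IRF9, which binds the interferon stimulated response element in their promoters; their products sense, degrade or trap viral nucleic acid. Of 48 genes listed, 45 were tested, 40 rose beyond 2-fold, none fell beyond it, and the median log2 change was 2.38 (2.08 on the total-count scale), against -0.03 over all genes. The promoters of 3 members are shown because the response element lies just upstream of the start in each. The letters are 200 bases before the RefSeq start on GRCm38.p6, 5′ to 3′ on the gene's strand; capitals mark the core of the element, which is GAAA followed by 2 bases of any kind and again GAAA, on either strand, with overlapping matches run together.
Ifit1, chr19:34640689-34640888, plus strand: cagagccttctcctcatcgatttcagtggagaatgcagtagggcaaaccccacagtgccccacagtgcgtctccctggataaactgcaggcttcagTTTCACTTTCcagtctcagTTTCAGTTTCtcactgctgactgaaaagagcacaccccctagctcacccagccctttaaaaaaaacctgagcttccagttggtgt
Isg15, chr4:156200819-156201018, minus strand: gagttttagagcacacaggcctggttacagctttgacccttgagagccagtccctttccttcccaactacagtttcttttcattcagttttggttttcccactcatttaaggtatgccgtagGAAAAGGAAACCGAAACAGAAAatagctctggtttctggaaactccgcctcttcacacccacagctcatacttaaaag
Oas3, chr5:120777660-120777859, minus strand: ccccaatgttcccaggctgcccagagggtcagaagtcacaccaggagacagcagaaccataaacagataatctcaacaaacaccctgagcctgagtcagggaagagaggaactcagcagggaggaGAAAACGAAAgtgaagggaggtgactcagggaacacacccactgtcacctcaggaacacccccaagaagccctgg
The Ifit1 stretch holds 2 matches, Isg15 has 3 that overlap, and Oas3 has 1. In windows of 250 bases before to 50 after the start, 20 of the 33 interferon genes with a RefSeq promoter held the letters (60.6%), against 3.7% of 10766 tested genes with such a window. The median log2 change was 2.43 in those 20 and 1.61 in the other 13. A match is a description of the letters, not evidence of binding.

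Ifit1, whose product binds viral RNA lacking the usual cap methylation, had 169, 169 and 152 CPM in monolayer libraries, against 14.1, 14.9 and 14.9 CPM in primary libraries. Isg15, a ubiquitin-like modifier, had 112, 108 and 115 CPM in monolayer libraries, against 20.3, 21.6 and 20.4 CPM in primary libraries. Oas3, an oligoadenylate synthetase that activates RNase L, had 69.3, 69 and 72 CPM in monolayer libraries, against 2.52, 2.9 and 2.55 CPM in primary libraries. For all 3 the groups lay far apart, with log2 changes of 3.48 (SE 0.049), 2.43 (SE 0.042) and 4.72 (SE 0.063). Among the largest changes were those of the p200 family of DNA-binding proteins: Ifi207 averaged 48.9 ± 0.894 CPM in monolayer and 0.386 ± 0.166 CPM in primary cells, Ifi205 9.7 ± 0.333 CPM in monolayer and 0.248 ± 0.0671 CPM in primary cells, and Ifi204 75.2 ± 3.84 CPM in monolayer and 3.29 ± 0.289 CPM in primary cells. These genes, and Ifit3 with Ifit3b, are close copies among which reads may have been divided, so the change of each single copy is uncertain. Among the sensors and factors 8 of 9 rose beyond 2-fold: Irf7, the factor that amplifies the response, averaged 123 ± 5.39 CPM in monolayer and 25.6 ± 0.62 CPM in primary cells, and Stat2, a subunit of the activating complex, 334 ± 4.07 CPM in monolayer and 93.1 ± 0.717 CPM in primary cells. Irf1, which also answers to interferon gamma, was the exception, with 21.8, 20.6 and 23.5 CPM in monolayer libraries and 24, 22.4 and 23.7 CPM in primary libraries (log2 change -0.09, edgeR adjusted p = 0.164); its groups overlapped.

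Genes of antigen presentation were higher as well. Of 15 genes tested, 6 rose beyond 2-fold, none fell beyond it, and the median was 1.11; on the total-count scale 3 rose. All 6 were among the 9 MHC class I genes tested, whose median was 1.32, while none of 4 immunoproteasome and 2 MHC class II genes passed beyond 2-fold. H2-D1, a classical class I heavy chain, had 822, 772 and 842 CPM in monolayer libraries, against 285, 282 and 295 CPM in primary libraries. H2-K1, the other classical chain, had 589, 554 and 624 CPM in monolayer libraries, against 247, 250 and 255 CPM in primary libraries. Neither pair of groups overlapped, though reads of such similar chains can be hard to assign. Nlrc5, the transactivator of class I genes, averaged 41.4 ± 2.66 CPM in monolayer and 15.2 ± 0.892 CPM in primary cells, and Tap1, a subunit of the peptide transporter, 129 ± 2.61 CPM in monolayer and 51.6 ± 2.28 CPM in primary cells. Tapbp, which loads peptides, and H2-T22, a non-classical chain, rose 2.51-fold and 2.63-fold, with 32.8% and 23.3% of their spans shared with other entries. No level is given for B2m, the light chain, whose entry lies wholly within another. The macrophage markers given above were lower in monolayer while these genes were higher. The part of macrophages in the levels of these genes was not tested.

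**Figure D4:**
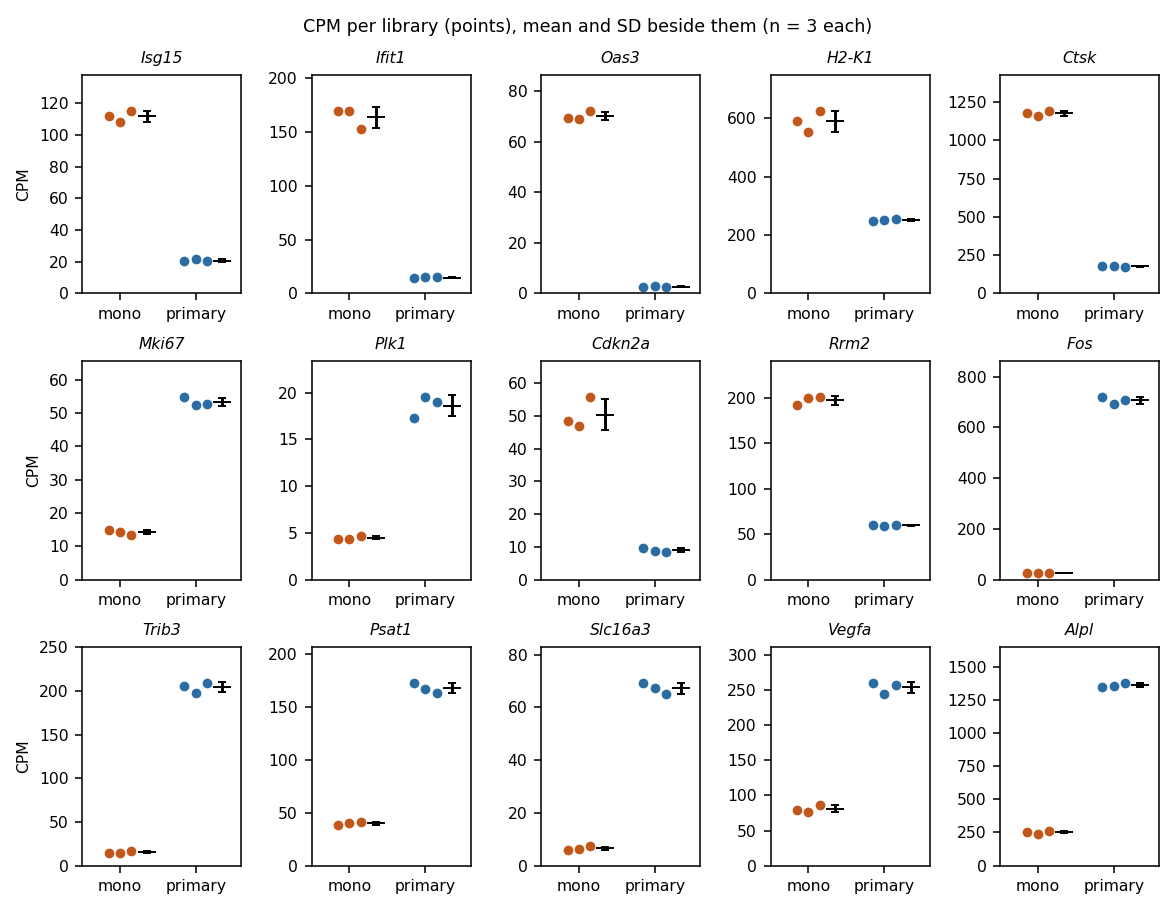
CPM of 15 genes in each library (points, axis from 0), with the mean and SD beside them (n = 3), monolayer to the left of primary. The interferon genes Isg15, Ifit1 and Oas3, H2-K1, Ctsk, Cdkn2a and Rrm2 are higher in all 3 monolayer libraries, and Mki67, Plk1, Fos, Trib3, Psat1, Slc16a3, Vegfa and Alpl are lower in all 3.

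Genes of mitosis were lower throughout. Of 33 listed, 32 were tested, all 32 were lower by the plain test, 28 fell beyond 2-fold, and the median was -1.71. Plk1, the kinase that drives mitotic entry and spindle assembly, had 4.37, 4.36 and 4.7 CPM in monolayer libraries, against 17.3, 19.5 and 19 CPM in primary libraries. Cdc20, which activates the anaphase-promoting complex, had 7.63, 7.88 and 6.77 CPM in monolayer libraries, against 30.4, 29.5 and 31.3 CPM in primary libraries. Mki67, which encodes the proliferation antigen Ki-67, had 14.8, 14.3 and 13.5 CPM in monolayer libraries, against 54.8, 52.5 and 52.7 CPM in primary libraries. None of these overlapped between groups, and the folds by the means were 4.16, 4.1 and 3.76, all lower in monolayer. Cenpf, a kinetochore protein, and Kif23, a kinesin of the central spindle, were among the members with the largest changes, -2.12 and -2.11 on the log2 scale. Cdk1 itself, the mitotic cyclin-dependent kinase, was 1.91-fold lower and did not pass the test beyond 2-fold.

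Promoters of many mitotic genes carry the cell cycle homology region, the letters TTTGAA or TTCGAA, through which the MuvB complex acts. It is shown for Cdc20, with 1 match upstream of the start, and for Top2a, the topoisomerase that untangles chromosomes, with 4; capitals mark the letters on either strand, in 200 bases before the RefSeq start on GRCm38.p6, 5′ to 3′ on the gene's strand.
Cdc20, chr4:118437344-118437543, minus strand: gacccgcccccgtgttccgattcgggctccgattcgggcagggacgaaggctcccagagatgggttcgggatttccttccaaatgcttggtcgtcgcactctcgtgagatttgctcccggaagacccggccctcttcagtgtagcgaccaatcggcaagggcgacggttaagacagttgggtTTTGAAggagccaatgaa
Top2a, chr11:99024190-99024389, minus strand: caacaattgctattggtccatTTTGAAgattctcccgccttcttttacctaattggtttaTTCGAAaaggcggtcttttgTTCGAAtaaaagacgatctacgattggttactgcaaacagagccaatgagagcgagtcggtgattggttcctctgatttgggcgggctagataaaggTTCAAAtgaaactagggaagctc
Of 27 mitosis genes with a window, 23 held the letters (85.2%), against 16.5% of all tested genes. The median change was -1.72 in those 23 and -1.71 in the 4 without. Top2a averaged 19.7 ± 0.536 CPM in monolayer and 62.4 ± 3.45 CPM in primary cells.

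Most DNA replication genes were lower as well. Of 30 tested, 25 were lower and 3 higher by the plain test, 12 fell and 2 rose beyond 2-fold, and the median was -0.85. Among the MCM helicase subunits, which open DNA at origins, Mcm3 averaged 8.87 ± 0.643 CPM in monolayer and 31.3 ± 0.759 CPM in primary cells, Mcm5 6.96 ± 0.703 CPM in monolayer and 24 ± 0.545 CPM in primary cells, and Mcm2 17.3 ± 0.563 CPM in monolayer and 50.5 ± 0.299 CPM in primary cells. Uhrf1, which brings DNA methylation to newly copied DNA, was 3.56-fold lower. The increases beyond 2-fold were both subunits of ribonucleotide reductase, the enzyme that makes deoxynucleotides. Rrm2 had 192, 200 and 201 CPM in monolayer libraries, against 59.6, 58.9 and 60.4 CPM in primary libraries, and Rrm1 had 649, 670 and 639 CPM in monolayer libraries, against 250, 247 and 248 CPM in primary libraries. In both, every monolayer value lay above every primary value while the other replication genes past the 2-fold test lay the other way. The other higher gene was Ccne1, a cyclin of S phase entry, with 13.7 ± 0.324 CPM in monolayer and 11.6 ± 0.387 CPM in primary cells, whose direction turns on the total-count scale.

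The list of cell cycle inhibitors and p53 targets, in which the D-type cyclin Ccnd2 was also placed, held 6 increases beyond 2-fold and no decrease among 31 tested. Its median was 0.27, and -0.02 on the total-count scale. Cdkn2a, the locus of the Ink4a and Arf inhibitors, had 48.4, 47 and 55.7 CPM in monolayer libraries, against 9.55, 8.85 and 8.36 CPM in primary libraries. Its neighbour Cdkn2b, a further Ink4 inhibitor, had 120, 117 and 133 CPM in monolayer libraries, against 42.4, 47.8 and 46.8 CPM in primary libraries. Both loci were higher in every monolayer library, 5.65-fold and 2.7-fold by the means. Cdkn1c, an imprinted inhibitor of cyclin-dependent kinases, was 2.9-fold higher, with 32.9% of its span shared with another entry. Pmaip1, the pro-death BH3 protein Noxa, was 3.31-fold higher, and Ccng1, a p53-induced cyclin, 2.22-fold higher. Cdkn1a, the p53-induced inhibitor, averaged 690 ± 22 CPM in monolayer and 372 ± 2.46 CPM in primary cells, a change of 0.89 that did not pass the test beyond 2-fold. Ccnd2, a D-type cyclin that opens the cell cycle, was 2.19-fold higher in monolayer.

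Immediate early genes, which cells transcribe within minutes of a stimulus, fell widely. Of 21 tested, 15 fell and 1 rose beyond 2-fold, and the median was -1.76. Fosb (chr7:19302696-19310051 on GRCm38), an AP-1 subunit, had 1.39, 1.57 and 1.58 CPM in monolayer libraries, against 690, 671 and 688 CPM in primary libraries. Fos had 26.7, 26.6 and 26 CPM in monolayer libraries, against 719, 692 and 707 CPM in primary libraries. Egr1, a zinc finger factor, had 40.0, 39.4 and 40.4 CPM in monolayer libraries, against 393, 393 and 396 CPM in primary libraries. All 3 were low in every monolayer library, Fosb 452-fold by the means (log2 change -8.82, SE 0.049; edgeR adjusted p = 1.4e-28). Junb was 4.44-fold lower, Jun 7.1-fold lower (21.6% of its span is shared with another entry), and Dusp1, a phosphatase of MAP kinases, 3.79-fold lower. The member that rose was the orphan receptor Nr4a3, with 2.2, 2.65 and 2.53 CPM in monolayer libraries and 0.646, 0.833 and 0.465 CPM in primary libraries.

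The amino acid and endoplasmic reticulum stress genes are given by their role. Among 18 targets of ATF4, the factor induced when amino acids run short, 11 fell beyond 2-fold and none rose, with a median of -1.21; among 18 endoplasmic reticulum chaperones and their regulators, none passed in either direction, with a median of -0.08. The difference between these parts of the list was not tested. Trib3, a pseudokinase induced by ATF4, had 14.5, 14.6 and 16.9 CPM in monolayer libraries, against 206, 198 and 209 CPM in primary libraries. Psat1, an enzyme of serine synthesis, had 38.2, 40.6 and 40.7 CPM in monolayer libraries, against 172, 167 and 163 CPM in primary libraries. Both were lower in every monolayer library. Asns, asparagine synthetase, was 2.76-fold lower, Phgdh, which opens serine synthesis, 2.23-fold lower, Shmt2, which moves serine carbon to folate, 2.95-fold lower, and Chac1, which degrades glutathione, 4.11-fold lower. Slc7a11, the cystine importer, averaged 1.06 ± 0.0659 CPM in monolayer and 7.96 ± 0.264 CPM in primary cells. Hspa5, the main chaperone of the endoplasmic reticulum, averaged 752 ± 5.43 CPM in monolayer and 1115 ± 11.6 CPM in primary cells, a change that did not pass beyond 2-fold. The NRF2 and metallothionein genes, which answer oxidants and metals, held 2 decreases and no increase beyond 2-fold among 22 tested, Slc7a11 being one of them, and 1 decrease by DESeq2.

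Glycolysis and hypoxia genes held 9 decreases and no increase beyond 2-fold among 24 tested, with a median of -0.75. Slc16a3, which exports lactate, had 5.97, 6.36 and 7.3 CPM in monolayer libraries, against 69.1, 67.3 and 65 CPM in primary libraries. Slc2a1, the basal glucose transporter, had 15.6, 14.2 and 14.9 CPM in monolayer libraries, against 53.6, 55.9 and 56.8 CPM in primary libraries. Vegfa, the vascular growth factor induced by hypoxia, had 79.8, 77 and 87 CPM in monolayer libraries, against 260, 245 and 258 CPM in primary libraries. The groups did not overlap for any of them, and the folds by the means were 10.3, 3.72 and 3.13, all lower in monolayer. Egln3, an oxygen-sensing hydroxylase that is itself induced by hypoxia, averaged 0.218 ± 0.123 CPM in monolayer and 6.22 ± 0.686 CPM in primary cells. Pgk1 and Pfkl, glycolytic kinases, were 2.55-fold and 2.65-fold lower, while Ldha, lactate dehydrogenase, was 1.75-fold lower and did not pass beyond 2-fold. The hypoxia response core ACGTG was present in the windows of 16 of 23 of these genes (69.6%), against 28.6% of all tested genes. Hif1a has no level here because its entry lies within another.

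Genes of the translation machinery and of respiration shifted little. All 45 cytosolic ribosomal protein genes tested were lower by the plain test and none passed beyond 2-fold, with a median of -0.59; on the total-count scale 5 passed and the median was -0.89. Rplp0, of the ribosomal stalk, averaged 1536 ± 22.5 CPM in monolayer and 2327 ± 30.6 CPM in primary cells, and Rpl4 955 ± 2.51 CPM in monolayer and 1446 ± 12.1 CPM in primary cells. None of 36 nuclear genes of the respiratory chain passed beyond 2-fold, and their median was -0.15. Atp5b, the catalytic subunit of ATP synthase, averaged 566 ± 11.9 CPM in monolayer and 653 ± 11.3 CPM in primary cells.

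Matrix genes changed in both directions. Of 37 genes of fibrillar and associated collagens and their processing, 5 rose and 1 fell beyond 2-fold (0 fell by DESeq2 and 2 on the total-count scale), with a median of 0.16 that is -0.14 on the total-count scale. Col1a1 had 83762, 79710 and 88595 CPM in monolayer libraries, against 39570, 39676 and 40892 CPM in primary libraries. Col1a2 had 44784, 43884 and 45654 CPM in monolayer libraries, against 14855, 14855 and 14795 CPM in primary libraries. The chains of type I collagen were thus 2.1-fold and 3.02-fold higher in monolayer, of which only that of Col1a2 passed beyond 2-fold. Col3a1, of type III collagen, was 1.21-fold higher, and its direction turns on the total-count scale. Col24a1, a minor fibrillar chain of bone, was 11.1-fold higher. Loxl3, a cross-linking oxidase, was 3.94-fold higher, and P4ha3, a prolyl hydroxylase subunit, 2.79-fold higher.

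Basement membrane genes exchanged members. Among 17 tested, 3 rose and 3 fell beyond 2-fold. Col4a1, a chain of the collagen IV network, had 5274, 5038 and 5310 CPM in monolayer libraries, against 1067, 1016 and 1057 CPM in primary libraries. Its partner Col4a2 had 4302, 4043 and 4443 CPM in monolayer libraries, against 1107, 1100 and 1121 CPM in primary libraries. Both were higher in every monolayer library, 4.97-fold and 3.84-fold by the means, while Col4a6, a chain of other basement membranes, was 3.62-fold lower. Among laminin alpha chains, Lama1 had 2.88, 2.1 and 2.17 CPM in monolayer libraries, against 79.1, 80.7 and 77.4 CPM in primary libraries. Lama2, the chain of muscle and mesenchyme, had 808, 809 and 787 CPM in monolayer libraries, against 358, 363 and 357 CPM in primary libraries. Lama5 averaged 3.05 ± 0.446 CPM in monolayer and 22.5 ± 0.453 CPM in primary cells. The chains thus lay on opposite sides, Lama1 and Lama5 lower and Lama2 higher in every monolayer library.

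Of 39 matricellular, elastic fibre and proteoglycan genes, 13 rose and 8 fell beyond 2-fold, with a median of 0.39. Small leucine-rich proteoglycans, which space collagen fibrils, were among those that rose. Lum had 1094, 1153 and 1050 CPM in monolayer libraries, against 150, 155 and 154 CPM in primary libraries. Dcn, which encodes decorin, had 581, 615 and 558 CPM in monolayer libraries, against 144, 147 and 144 CPM in primary libraries. Prelp had 174, 163 and 175 CPM in monolayer libraries, against 6.71, 8.05 and 8.13 CPM in primary libraries, with 40.7% of its span shared with another entry. All 3 were higher in every monolayer library. Bgn, which encodes biglycan of the same family, averaged 2469 ± 39.4 CPM in monolayer and 2547 ± 3.27 CPM in primary cells and did not pass the plain test (edgeR adjusted p = 0.0603), but passed as lower on the total-count scale, with a minimum mean of 1 CPM and without the second monolayer library. Among the 10 tested genes of proteoglycans, hyaluronan synthesis and linkage, 6 rose beyond 2-fold, of which Has1 (3.18-fold) and Has2 (3.25-fold) are hyaluronan synthases. Efemp1, a fibulin, was 9.95-fold higher, Wisp2, a CCN family protein, 7.35-fold higher, and Thbs2, a thrombospondin, 3.51-fold higher. On the other side, Tgfbi, an integrin-binding matrix protein named for its induction by TGF-beta, had 2.88, 3.06 and 2.94 CPM in monolayer libraries, against 88, 87.9 and 94 CPM in primary libraries. Tnc, tenascin C of condensing mesenchyme, had 5.24, 5.42 and 4.83 CPM in monolayer libraries, against 109, 110 and 106 CPM in primary libraries, with 77.0% of its span shared with another entry. Tnn, tenascin N, had 924, 901 and 938 CPM in monolayer libraries, against 2667, 2658 and 2650 CPM in primary libraries. Every primary value lay above every monolayer value for these 3. Elastic fibre genes included the decreases Eln, which encodes elastin (1.23 ± 0.222 CPM in monolayer and 10.7 ± 0.508 CPM in primary cells), Mfap4 (1.29 ± 0.159 CPM in monolayer and 12.2 ± 0.306 CPM in primary cells), Fbn2, a fibrillin of developing tissue (391 ± 7.26 CPM in monolayer and 1163 ± 19.6 CPM in primary cells) and Ltbp2, a latent TGF-beta binding protein family member (87.6 ± 4.21 CPM in monolayer and 298 ± 4.25 CPM in primary cells). Thbs4, thrombospondin 4, averaged 0.282 ± 0.124 CPM in monolayer and 12.8 ± 0.528 CPM in primary cells.

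**Figure D5:**
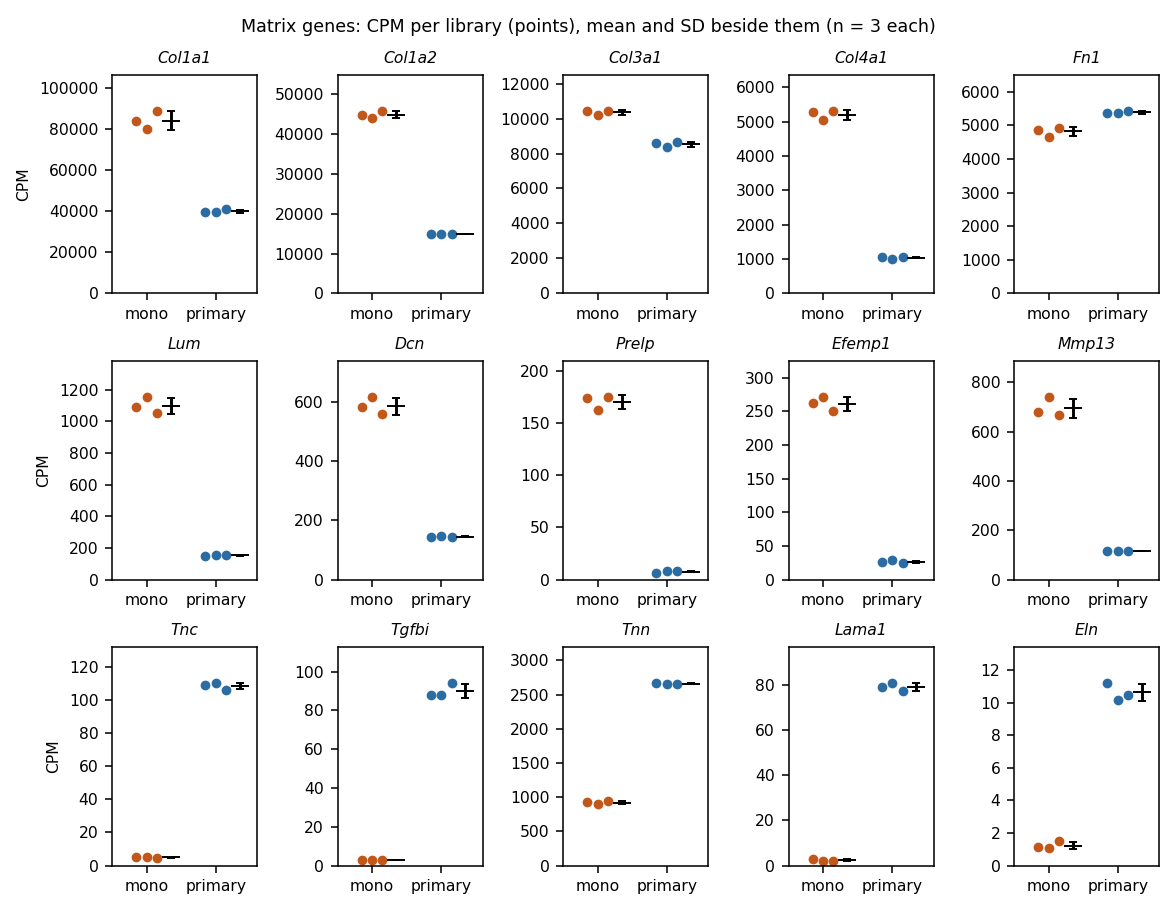
CPM of 15 matrix genes in each library (points, axis from 0), with the mean and SD beside them (n = 3), monolayer to the left of primary. Col1a1, Col1a2, Col3a1, Col4a1, Lum, Dcn, Prelp, Efemp1 and Mmp13 are higher in all 3 monolayer libraries, and Fn1, Tnc, Tgfbi, Tnn, Lama1 and Eln are lower in all 3; the direction of Col3a1 turns on the total-count scale.

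Matrix proteases and their inhibitors moved upward: of 21 tested, 10 rose beyond 2-fold, none fell beyond it, and the median was 0.82. Mmp13, an interstitial collagenase, had 680, 740 and 666 CPM in monolayer libraries, against 115, 117 and 117 CPM in primary libraries. Mmp14, the membrane-bound activator of gelatinase, had 4696, 4395 and 4853 CPM in monolayer libraries, against 2003, 2012 and 2043 CPM in primary libraries. Timp2, an inhibitor that also takes part in that activation, had 4699, 4644 and 4227 CPM in monolayer libraries, against 1239, 1350 and 1368 CPM in primary libraries. All 3 were higher in every monolayer library. Mmp2, the gelatinase itself, was 2.58-fold higher and Adamts12 2.71-fold higher. Timp1 and Timp3 lie within other entries and have no level here.

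Adhesion receptors divided, with 7 increases and 6 decreases beyond 2-fold among 27 integrins and cadherins tested. Itga8, a receptor subunit for nephronectin, averaged 683 ± 25.9 CPM in monolayer and 166 ± 5.7 CPM in primary cells. Itga11, a collagen receptor subunit of fibroblasts, averaged 381 ± 11.1 CPM in monolayer and 89 ± 0.767 CPM in primary cells. Cdh13, a cadherin without a transmembrane part, had 112, 112 and 112 CPM in monolayer libraries, against 19.6, 20.3 and 20.0 CPM in primary libraries. Itgb7 was 4.79-fold higher, while Itga6, a laminin receptor subunit, and Itga9, a tenascin receptor subunit, were 3.55-fold and 3.07-fold lower. Itga6, Cdh1 and Lama5 moved in the same direction as the epithelial markers given above; the part of those markers in these changes was not tested. Contractile genes and targets of SRF and YAP held 1 increase beyond 2-fold among 29 tested, Vgll3, a TEAD cofactor (3.57-fold). They held 3 decreases beyond 2-fold, with 5 on the total-count scale and 2 by DESeq2. Over all genes tested, 6.46% rose and 8.13% fell beyond 2-fold. Acta2, smooth muscle actin, was 1.79-fold lower and did not pass beyond 2-fold. Myh11, smooth muscle myosin, averaged 1.06 ± 0.0519 CPM in monolayer and 7.5 ± 0.593 CPM in primary cells.

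Several genes of mineralization were lower in monolayer. Of 23 listed, 18 were tested, 4 fell and 2 rose beyond 2-fold, and on the total-count scale 1 rose. Alpl, the tissue-nonspecific alkaline phosphatase that frees phosphate for mineral, had 257, 241 and 262 CPM in monolayer libraries, against 1344, 1357 and 1375 CPM in primary libraries. Ibsp, bone sialoprotein, had 5.76, 5.85 and 5.85 CPM in monolayer libraries, against 25.9, 27.7 and 25.3 CPM in primary libraries. Spp1, osteopontin, had 13.2, 12.7 and 11.9 CPM in monolayer libraries, against 34.8, 35.2 and 36.1 CPM in primary libraries, with 21.1% of its span shared with another entry. All 3 were lower in every monolayer library, Alpl 5.36-fold by the means. Dspp, which encodes the main dentin phosphoprotein, had no count in either group, and counts of 0 over a group allow a level of up to 0.0235 CPM in monolayer and 0.0195 CPM in primary cells. Dmp1, an acidic protein of dentin and bone, had 4 counts in monolayer and 54 in primary libraries. Mepe and Ifitm5, a matrix protein and a membrane protein of mineralizing cells, and Phex, a peptidase of phosphate control, were too low to test, with at most 0.144 CPM in monolayer and 0.172 CPM in primary cells on average. Mgp, an inhibitor of calcification, averaged 8.89 ± 0.0855 CPM in monolayer and 3.43 ± 0.21 CPM in primary cells. The osteocalcin genes Bglap and Bglap2 were 1.59-fold and 1.84-fold higher and did not pass beyond 2-fold. Among phosphate and pyrophosphate transporters, Slc20a1 and Slc20a2 were 1.48-fold and 1.24-fold lower, with 47.4% of the span of Slc20a1 shared with another entry. Ank, of whose span 43.5% is shared, did not pass the test (adjusted p = 0.587, edgeR) and its direction turns without the third primary library, and Enpp1, which makes pyrophosphate, did not pass (adjusted p = 0.0547, edgeR). Fam20c, the kinase of secreted phosphoproteins, was 1.45-fold higher. The factors Runx2 and Sp7, which direct bone and dentin forming cells, averaged 172 ± 5.87 and 125 ± 5.01 CPM in monolayer, against 200 ± 2.34 and 200 ± 0.618 CPM in primary cells, and Klf4 averaged 300 ± 13.8 CPM in monolayer and 411 ± 4.74 CPM in primary cells; none passed beyond 2-fold. Phospho1 lies within another entry and has no level.

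Transcription factors of dental mesenchyme were lower more often than higher: of 23 tested, 15 were lower and 7 higher by the plain test, with a median of -0.36. Beyond 2-fold, 3 fell and none rose, with 7 decreases on the total-count scale and 2 by DESeq2, against 8.13% lower over all genes tested. Of the 3, Foxd1 and Gli1 were scarce, with 26 and 4 counts in monolayer and 192 and 45 in primary libraries. Msx2, a homeobox gene induced by BMP, was one of the 3, with 66.8, 62.1 and 69.2 CPM in monolayer libraries, against 159, 164 and 162 CPM in primary libraries. Its relative Msx1, required for tooth development past the bud stage, had 263, 250 and 276 CPM in monolayer libraries, against 170, 147 and 167 CPM in primary libraries. The related genes thus lay on opposite sides, with no overlap of groups in either. Pax9, an early marker of tooth mesenchyme, averaged 288 ± 8.45 CPM in monolayer and 189 ± 3.18 CPM in primary cells. Barx1, a homeobox factor of molar mesenchyme, averaged 348 ± 12.8 CPM in monolayer and 406 ± 7.7 CPM in primary cells. None of 25 Hox genes listed had enough counts to be tested, and 11 of them lie within other entries.

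Of 19 stem cell and mesenchymal surface markers tested, 6 fell and 2 rose beyond 2-fold, with a median of 0.18 that is -0.12 on the total-count scale. Cd24a (chr10:43578284-43584265 on GRCm38), the surface glycoprotein that marks the stem cells of the study's title, had 0.235, 0.53 and 0.715 CPM in monolayer libraries, against 5.29, 5.15 and 5.3 CPM in primary libraries. All monolayer values were below all primary values, by 10.6-fold of the means (log2 change -3.44, SE 0.2; edgeR adjusted p = 4.1e-12). Cd24a is also expressed by epithelial cells and leukocytes, whose markers were lower in monolayer as well; their part in its change was not tested. Thy1, which encodes CD90, had 3.73, 3.97 and 4.04 CPM in monolayer libraries, against 23.5, 21 and 22.3 CPM in primary libraries. Nes, an intermediate filament protein of neural progenitors and odontoblasts, had 1.45, 1.97 and 1.58 CPM in monolayer libraries, against 24.8, 25 and 24.2 CPM in primary libraries. Mcam, which encodes CD146 of pericytes and pulp stem cells, averaged 0.465 ± 0.161 CPM in monolayer and 6.75 ± 0.326 CPM in primary cells. The increases were Ly6a, the Sca-1 antigen, with 179, 179 and 173 CPM in monolayer libraries, against 15, 15.9 and 15.5 CPM in primary libraries, and Vcam1, an adhesion molecule that binds leukocyte integrins, with 34.2, 37.5 and 33.9 CPM in monolayer libraries, against 4.71, 3.81 and 4.01 CPM in primary libraries. In all 6 of these genes the groups lay apart.

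Signalling genes followed, by pathway and role. In the Wnt pathway 10 of 38 genes tested fell and 3 rose beyond 2-fold, with a median of -0.58; on the total-count scale 1 rose. Among the ligands and their enhancers, Rspo2, an R-spondin that amplifies Wnt signals, averaged 3.77 ± 0.592 CPM in monolayer and 11.6 ± 0.373 CPM in primary cells. Of the receptors, Fzd8 was 2.29-fold higher and the R-spondin receptor Lgr6 3.12-fold lower. Among the antagonists, Wif1, which binds Wnt proteins, had 10.9, 8.84 and 9.17 CPM in monolayer libraries, against 80.1, 76.7 and 77.5 CPM in primary libraries. Dkk3, a Dickkopf family protein, had 1739, 1751 and 1768 CPM in monolayer libraries, against 714, 723 and 711 CPM in primary libraries. These secreted proteins thus changed in opposite directions, each with no overlap of groups. Among the targets, Nkd1, a feedback inhibitor, averaged 10.3 ± 1.07 CPM in monolayer and 54.3 ± 0.737 CPM in primary cells, while Apcdd1, a membrane inhibitor, was 3.04-fold higher.

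In BMP and TGF-beta signalling 9 of 39 genes rose and 6 fell beyond 2-fold, and 5 rose on the total-count scale. The ligands Bmp2 and Bmp3 averaged 25.8 ± 2.12 and 6.14 ± 0.566 CPM in monolayer, against 87.7 ± 1.92 and 21.9 ± 0.0722 CPM in primary cells, while Tgfb2 averaged 146 ± 3.88 CPM in monolayer and 61.3 ± 2.58 CPM in primary cells and Gdf6 8.3 ± 0.493 CPM in monolayer and 1.29 ± 0.121 CPM in primary cells. Both receptors that rose bind TGF-beta, Tgfbr2 2.42-fold and Tgfbr3 2.73-fold. Of the BMP antagonists, Grem1 had 624, 652 and 602 CPM in monolayer libraries, against 167, 165 and 162 CPM in primary libraries. Nog, which encodes noggin, had 1.6, 1.49 and 1.89 CPM in monolayer libraries, against 9.69, 8.49 and 10.2 CPM in primary libraries. One antagonist was therefore higher and the other lower in every monolayer library. The target Id1, induced by BMP, was 2.54-fold lower, and Tgfbi, described above, was 30.4-fold lower.

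Hedgehog and Notch genes held 8 decreases and no increase beyond 2-fold among 17 tested, with a median of -0.53. Ptch1, the Hedgehog receptor and a target of the pathway, had 6.44, 7.54 and 7.61 CPM in monolayer libraries, against 29.2, 29.1 and 28.9 CPM in primary libraries. Hhip, a secreted Hedgehog inhibitor that is also a target, had no count in monolayer and 1.19, 1.65 and 1.95 CPM in primary libraries, at least 68.0-fold lower in monolayer against a floor of 3 counts over the group. Gli1, the target that reports the pathway, was near the floor, with 4 counts in monolayer and 45 in primary libraries. Of the Notch ligands, Jag2 averaged 0.768 ± 0.13 CPM in monolayer and 11.8 ± 0.497 CPM in primary cells. Jag1, a more abundant ligand, went the other way without passing beyond 2-fold. It averaged 40.6 ± 2.12 CPM in monolayer and 27.0 ± 1.08 CPM in primary cells. Of the Notch targets, Hes1 had 7.31, 7.49 and 7.92 CPM in monolayer libraries, against 53.5, 58.1 and 59.2 CPM in primary libraries, and Hey1 had 1.15, 1.83 and 1.56 CPM in monolayer libraries, against 15, 17.4 and 17.5 CPM in primary libraries. Both repressors were lower in every monolayer library.

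FGF and IGF genes held 5 increases and 4 decreases beyond 2-fold among 22 tested, with 3 increases on the total-count scale and by DESeq2. Igf1, the growth factor itself, had 294, 310 and 275 CPM in monolayer libraries, against 87.6, 91.2 and 88.9 CPM in primary libraries. Igfbp3 and Igfbp6, which bind it or its relative, were 5.92-fold and 3.63-fold higher, and Igfbp5 averaged 22.1 ± 0.768 CPM in monolayer and 107 ± 1.62 CPM in primary cells. Fgfr3 was 3.19-fold lower and Spry4, a feedback inhibitor of receptor kinases, 2.19-fold higher.

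Axon guidance and neurotrophic genes held 6 increases and 5 decreases beyond 2-fold among 34 tested. By role, 6 of 24 guidance genes rose and 1 fell, while 4 of 10 neurotrophic genes fell and none rose, a difference that was not tested. Decreases over the whole list were 8 on the total-count scale and 3 by DESeq2. The repellents Sema3a and Sema3b averaged 85.1 ± 5.82 and 307 ± 15.8 CPM in monolayer, against 16.6 ± 0.406 and 94.6 ± 2.3 CPM in primary cells. Their co-receptor Plxna2 was 3.57-fold higher and the ephrin receptor Epha3 4.15-fold higher. Artn, a ligand of the GDNF family, had 1.13, 0.963 and 1.07 CPM in monolayer libraries, against 13.7, 15.2 and 14 CPM in primary libraries. It was low in every monolayer library, with no overlap of groups.

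Of 14 angiogenic factors tested, 5 rose and 4 fell beyond 2-fold. Vegfd, a lymphatic growth factor, had 403, 431 and 402 CPM in monolayer libraries, against 90.5, 92.7 and 87.8 CPM in primary libraries, opposite in direction to Vegfa. Angpt1, the ligand of the endothelial receptor Tie2, averaged 49 ± 2.05 CPM in monolayer and 9.71 ± 0.787 CPM in primary cells, and Vegfc 24.8 ± 1.49 CPM in monolayer and 10.3 ± 0.654 CPM in primary cells.

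Of 29 chemokine, cytokine and complement genes tested, 12 fell and 4 rose beyond 2-fold, with a median of -0.68. Csf1, the growth factor of macrophages, had 437, 421 and 442 CPM in monolayer libraries, against 1054, 1019 and 1055 CPM in primary libraries. Il34, the other ligand of its receptor, had 17.5, 16.8 and 18.6 CPM in monolayer libraries, against 6.71, 7.54 and 7.37 CPM in primary libraries. These ligands lay on opposite sides, with no overlap of groups. Tnfrsf11b, osteoprotegerin, which blocks osteoclast formation, was 2.25-fold lower. Tnfsf11, RANK ligand, was scarce and lower as well, with 6 counts in monolayer and 39 in primary libraries. Its ratio of primary to monolayer was 5.39 (95% exact interval 2.26 to 15.6). Ptgs2, the inducible prostaglandin synthase, averaged 9.89 ± 0.782 CPM in monolayer and 39 ± 1.79 CPM in primary cells. Cxcl14 and C3, a chemokine and the central complement protein, averaged 0.275 ± 0.0577 and 0.464 ± 0.0998 CPM in monolayer, against 6.36 ± 0.485 and 5.63 ± 0.189 CPM in primary cells; macrophage and epithelial markers moved the same way, and their part in these changes was not tested. Ccl8, a monocyte chemokine, had 1.39, 1.25 and 1.2 CPM in monolayer and no count in primary libraries, at least 65.7-fold higher against a floor of 3 counts over the group. No level is given for Ccl2 and Cxcl10, whose entries lie within others.

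Lysosomal genes were higher by small amounts. Of 40 tested, 38 were higher by the plain test, 7 rose and 1 fell beyond 2-fold, and the median was 0.67; on the total-count scale 4 rose and the median was 0.38. Ctsk, cathepsin K, a collagen-degrading protease best known from osteoclasts, had 1178, 1163 and 1192 CPM in monolayer libraries, against 180, 177 and 176 CPM in primary libraries. Gpnmb, a lysosomal and melanosomal glycoprotein, had 2235, 2108 and 2241 CPM in monolayer libraries, against 604, 591 and 589 CPM in primary libraries. Ctsb, cathepsin B, had 3698, 3608 and 3655 CPM in monolayer libraries, against 1758, 1761 and 1759 CPM in primary libraries. Every monolayer value lay above every primary value in these 3. Macrophage markers were lower in monolayer, and the part of macrophages in the levels of these genes was not tested. Lamp2, of the lysosomal membrane, and Psap, the saposin precursor, were 1.7-fold and 1.95-fold higher and did not pass beyond 2-fold.

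Cholesterol synthesis showed the same shape: 21 of 22 genes tested were higher by the plain test, and 2 passed beyond 2-fold, none on the total-count scale, where 16 were higher and 2 lower. The 2 were Sc5d, with 192, 202 and 180 CPM in monolayer libraries, against 77.1, 72 and 73.3 CPM in primary libraries, and Hsd17b7, with 188, 204 and 188 CPM in monolayer libraries, against 77.8, 74.8 and 74.2 CPM in primary libraries, both late enzymes of the pathway. The sterol regulatory element TCACNCCAC was found in the promoter windows of 1 of 14 of these genes (7.1%), against 1.4% of all tested genes. Of 20 genes of fatty acid synthesis and adipogenesis, 3 rose and 1 fell beyond 2-fold. Pparg, the master regulator of fat cells, had 69.2, 67.3 and 64.3 CPM in monolayer libraries, against 17.9, 17.4 and 18.8 CPM in primary libraries, and Lpl, lipoprotein lipase, had 34.2, 37 and 32.7 CPM in monolayer libraries, against 7.11, 5.36 and 5.54 CPM in primary libraries. Both were higher in every monolayer library. Of the adipocyte products, Adipoq, Plin1 and Retn had at most 10 counts in either group. Plin1 had 10 counts in monolayer and 2 in primary libraries, and Adipoq 1 and 5. Lep had 15 counts in monolayer and 0 in primary libraries.

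Of 16 imprinted genes tested, 2 rose and 2 fell beyond 2-fold. H19, a non-coding RNA of fetal mesenchyme, had 7.76, 7.18 and 8.15 CPM in monolayer libraries, against 69.9, 68.3 and 65.3 CPM in primary libraries. Its groups did not overlap, and the means differed 8.81-fold.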

How the data were processed

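RNA sequencing counts per gene were deposited as 1 table of 53353 entries; per the submitters' processing notes, reads were trimmed with fastp 0.20.0, aligned to GRCm38 with HISAT2 2.1.0 and counted with featureCounts 1.6.0. For the annotation release and the strand setting, the sources used here give nothing. In the table, 53245 entries are 1 unbroken interval as long as the gene's span, so intronic reads count, and 45.2% of entries overlap another; all 1210 protein-coding genes lying wholly inside another have at most 3 counts, so no level is given for them, and all 37 mitochondrial entries are at 0. From the counts as deposited, the 6 libraries were fitted with edgeR 4.0.16 (quasi-likelihood test, robust, TMM factors, filterByExpr with a minimum count of 10) and limma 3.58.1 in R 4.3.3, without covariates. P-values were adjusted by Benjamini-Hochberg over the 14928 genes tested, at a threshold of 0.05; the stricter test (glmTreat) took a change of 1 on the log2 scale as its null. Standard errors come from the same fit, and mean ± SD values are CPM over 3 libraries. Counts of 0 were given a floor of 3 counts over the group; intervals cover counting error only. The fit was tested on simulated data. Promoter windows came from RefSeq (GRCm38.p6), 250 bases before to 50 after each start, all of 300 bases.

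Counts of replicates differed by more than sampling noise (chi-square per degree of freedom 2.581 to 10.16), a spread that may be technical in part or whole. Each library was taken as 1 replicate in the fit. The 43 gene lists (1060 genes, 895 of them tested) and the members named were chosen with earlier results of these data known. Named genes were the 12 largest changes in each direction with non-overlapping groups and at least 10 CPM in the higher group, the 10 genes with the largest share of counts, up to 4 members of each list and direction past the 2-fold test with at least 5 CPM in the higher group (the 4 most abundant where none passed), Cd24a, the odontoblast list and defining markers of other cell types. Genes outside this rule, named after their values were seen, are Acp5, Acta2, Adgre1, Adipoq, Amelx, Asns, B2m, Barx1, Bgn, C1qa, Ccl2, Ccl8, Ccnd2, Ccne1, Ccng1, Cdh5, Cdk1, Cdkn1a, Chac1, Csf1, Csf1r, Ctsb, Cxcl10, Dcstamp, Dusp1, Enam, Epcam, Fbn2, Foxd1, Gli1, H2-K1, Has1, Has2, Hhip, Hif1a, Hspa5, Id1, Ifit1, Ifit3, Irf1, Irf7, Isg15, Jag1, Jun, Junb, Kcnj8, Krt15, Lamp2, Ldha, Lep, Ltbp2, Mki67, Mmp14, Mmp2, Msx1, Nr4a3, Pax9, Pdgfrb, Pecam1, Pfkl, Pgk1, Phgdh, Plin1, Psap, Retn, Rgs5, Shmt2, Stat2, Tap1, Tgfb2, Tgfbr2, Thbs2, Timp1, Timp3, Tnfrsf11b, Tnfsf11 and Top2a. Alternatives tried were DESeq2 1.42.0, its size factors in edgeR, total-count scaling, other filters, all 9 libraries in 1 fit, a replicate block, genes overlapping no other entry, and leaving out each library. A few genes of the lists are not reported here by name.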

Additional observations from a re-analysis of the deposited data

How the results depend on the processing

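Scaling moved the balance of the counts over all genes: with total counts, genes higher in monolayer numbered 3051 and genes lower in monolayer 8785. Among the 7539 genes tested that overlap no other entry, 2713 were higher and 2926 lower; genes higher in monolayer beyond 2-fold numbered 499 and genes lower in monolayer beyond 2-fold 659, with fewer genes tested by construction. Leaving out each library in turn gave 5173 to 5406 higher, 5488 to 5817 lower, 943 to 973 higher beyond 2-fold and 1156 to 1258 lower beyond 2-fold. The other alternatives moved these counts by less than 1.5 times. Of the log2 changes of named genes, 3482 of the recomputed values kept their direction and their side of the threshold. With total counts, genes that turned included Col3a1 (-0.02), Eng (-0.09), Emcn (-0.02), Ccne1 (-0.07) and Sox9 (-0.21). Emcn ranged from -0.04 to 0.7 and Ank from -0.71 to 0.09 when each library was left out. Replicate numbers are shared between the groups, but same-numbered libraries did not deviate together (correlations -0.01946, 0.0321 and -0.005055; 2 of 6 libraries correlated best with their own number), and with the number as a replicate block 5386 genes were higher, 5772 lower, and 957 higher and 1204 lower beyond 2-fold. The cause of these differences was not tested. Depth limits statements on genes of a few counts, such as Dmp1, Gli1 and Cdh5.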

Other observations

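Among the classes of non-coding genes with the most members tested, increases outnumbered decreases. Of 12952 protein-coding genes tested, 765 rose and 1109 fell beyond 2-fold in monolayer. Of 409 lincRNA genes tested, 69 rose and 26 fell, and of 285 antisense genes tested, 41 rose and 20 fell. Processed transcripts lay nearer to balance, with 22 that rose and 18 that fell among 224 tested. The strand setting of the counting is not given. All 1210 protein-coding genes wholly inside another entry, whatever the strand of either, had at most 3 counts. Counts of an antisense gene may therefore lack reads from the span shared with its partner. Whether reads outside that span belong to the gene or to its partner was not tested. The difference between these classes was not tested.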
